A study of Mus musculus with 6 samples.

Results

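The parental gene Bckdhb gave rise to 10 circRNA isoforms among the 3662 circRNAs of the deposited table. They were taken by position, as every circRNA on the + strand that lies within the gene (chr9:83818757-84017846, mm9, identifier ENSMUSG00000032263.7, 11 exons). To enter the table a circRNA needed at least 2 reads in each replicate of some stage, so the choice of members used their read counts, and their detection at a stage is given as a description. The gene was also picked for study here with results of these same libraries already known, so its tests are not independent evidence that it stands apart.

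The libraries came from stromal vascular fraction (SVF) cells of the inguinal white fat of 6-week-old female C57BL/6 mice (C57BL/6J background in the study's methods), cultured and differentiated into white adipocytes. D0 cells were proliferating and had not been induced, and D4 cells had been kept for 4 days in induction medium (10% serum with insulin at 2.85 mM, dexamethasone at 0.3 mM and IBMX at 0.63 mM). D8 cells had then spent 4 more days in medium with 10% serum, 10 nM of the thyroid hormone T3 and insulin at 200 nM. Each stage had 2 replicate libraries of RNA from which rRNA and linear RNA had been removed, 6 in all. The SVF holds other cell types beside preadipocytes, and the cells were not sorted. The labels do not say whether replicates came from separate mice, so p-values measure only the spread between these libraries.

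A circRNA forms when the end of an exon is joined back to the start of an exon upstream, and the reads that cross this back-splice are its count. Bckdhb encodes the beta subunit of the decarboxylase of the branched-chain keto acid dehydrogenase complex, the mitochondrial enzyme that commits the keto acids of leucine, isoleucine and valine to breakdown. Differentiated adipocytes are known to burn branched-chain amino acids and to use their carbon for fatty acid synthesis.

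The 10 isoforms are all joined from a small set of back-splicing sites. The most abundant isoform was circ_0001822 (chr9:83882383-83906226), which runs from exon 4 to exon 8. Next by reads over the 6 libraries together were circ_0015952 (exons 2 to 6, chr9:83846131-83885429) and circ_0015953 (exons 2 to 8, chr9:83846131-83906226). An isoform without a circBase number joined the end of exon 6 to a position in intron 1 (chr9:83845890-83885429). Their back-splices are shown because they are what was counted. The lower-case bases are the last 20 of the circle as the annotation orders it, and the capitals are its first 20, read from the mm9 genome on the + strand.
circ_0001822, exons 4 to 8: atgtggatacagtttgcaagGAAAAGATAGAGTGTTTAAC
circ_0015952, exons 2 to 6: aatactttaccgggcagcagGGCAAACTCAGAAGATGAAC
circ_0015953, exons 2 to 8: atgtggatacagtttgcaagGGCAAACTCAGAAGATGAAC
intron 1 to exon 6: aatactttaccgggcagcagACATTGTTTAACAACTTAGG
In these lines circ_0001822 and circ_0015953 share the end of exon 8, while circ_0015952 and circ_0015953 share the start of exon 2. The pair that ends at exon 6 differs only in where the circle begins.

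The other 6 isoforms were rarer. They were the intron 1 to exon 8 circle (chr9:83845890-83906226, 33 reads over the 6 libraries), the exons 4 to 7 circle (chr9:83882383-83903958, 15 reads), the exons 4 to 9 circle (chr9:83882383-83962798, 14 reads), the intron 3 to exon 8 circle (chr9:83879585-83906226, 11 reads), circ_0015955 of exons 7 to 9 (chr9:83903861-83962798, 10 reads) and the intron 1 to exon 9 circle (chr9:83845890-83962798, 8 reads). The rarest isoform lies just inside the table's limit, with 2 and 6 reads in the D4 libraries and none elsewhere. Isoforms that fell short of 2 reads in both replicates were not analysed here.

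**Figure D1:**
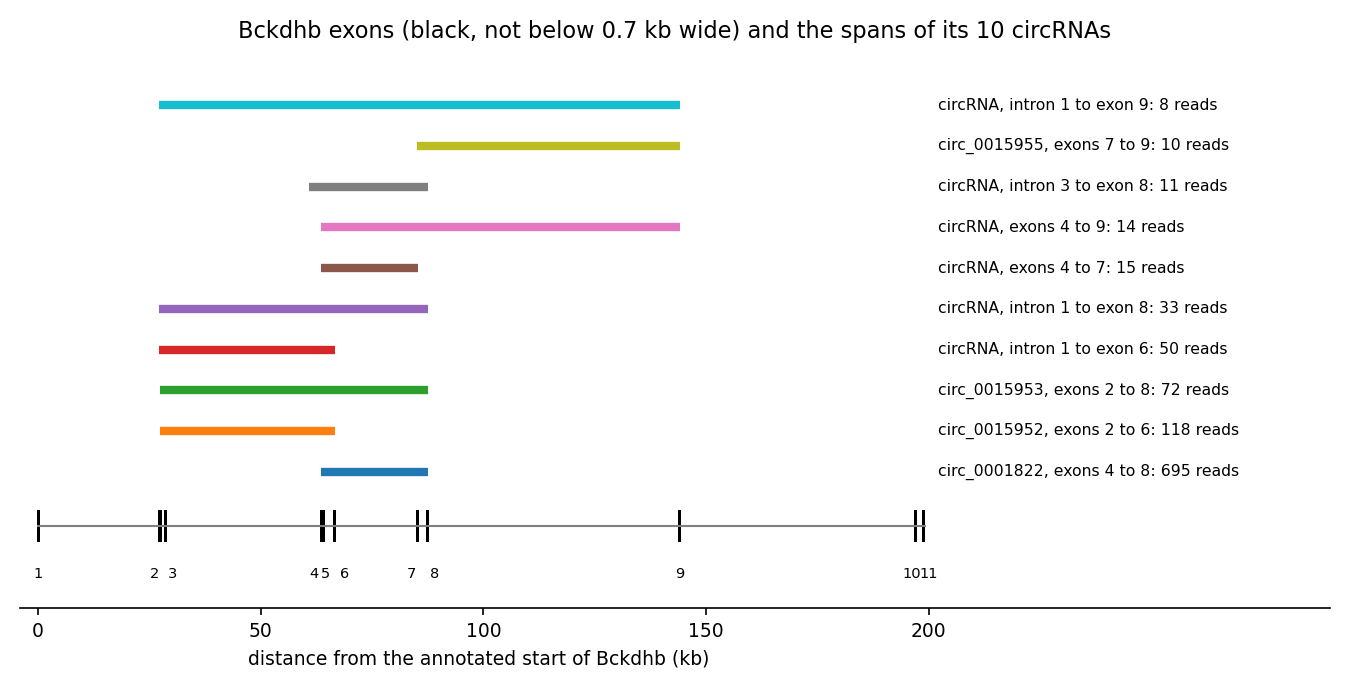
Map of Bckdhb with its 11 exons (black ticks, numbered) and the genomic spans of its 10 circRNAs (coloured bars), on an axis of distance from the annotated gene start in kb. All circles lie between intron 1 and exon 9, and the reads beside each bar are summed over the 6 libraries, from 695 for circ_0001822 to 8.

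Of the 10 isoforms, 6 had both ends at annotated exon ends, against 91.8% of the circRNAs in the table. The remaining 4 began inside an intron, 3 of them at one position in intron 1, 241 bases before exon 2, and 1 in intron 3, 2798 bases before exon 4. Their sequences are shown beside those of the annotated sites, with 20 bases of intron and 20 of circle and with the intron's AG at a start or GT at an end in capitals.
start in intron 1: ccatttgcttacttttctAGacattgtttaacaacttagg
start of exon 2: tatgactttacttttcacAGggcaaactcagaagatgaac
start in intron 3: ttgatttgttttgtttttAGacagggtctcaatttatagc
start of exon 4: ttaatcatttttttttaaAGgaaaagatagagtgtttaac
end of exon 6: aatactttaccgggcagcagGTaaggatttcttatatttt
end of exon 8: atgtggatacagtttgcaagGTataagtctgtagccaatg
end of exon 9: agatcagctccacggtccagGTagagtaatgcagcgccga
All 10 isoforms had AG before their start and GT after their end, as had 99.6% of the table. CIRI2, the program that called the circRNAs, uses these signals to accept a junction. Together, 6 isoforms (the 4 with an intronic start and the circles of exons 4 to 7 and 4 to 9) had no circBase number, against 35.6% of the table. They held 12.8% of the gene's reads.

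The spliced circle of circ_0001822 has 608 bases if it keeps all 5 exons between its ends. This was not measured, because the table counts the back-splice alone. Exons 4, 5, 6, 7 and 8 contribute 134, 156, 109, 98 and 111 bases. The 150 bases on each side of the back-splice are printed as the part that no linear transcript of the gene holds in this order, with the last 150 bases of the circle in lower case and the first 150, from the start of exon 4, in capitals.
circ_0001822 across its back-splice: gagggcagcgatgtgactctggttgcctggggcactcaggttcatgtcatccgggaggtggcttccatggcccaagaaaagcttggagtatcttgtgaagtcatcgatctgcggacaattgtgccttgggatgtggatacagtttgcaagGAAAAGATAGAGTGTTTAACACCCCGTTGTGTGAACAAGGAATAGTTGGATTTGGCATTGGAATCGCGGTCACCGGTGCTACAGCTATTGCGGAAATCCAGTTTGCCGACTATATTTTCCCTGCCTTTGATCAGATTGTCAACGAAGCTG
The median exonic circle of the table had 444 bases, and circ_0001822 sat at the 73.0th percentile of 3338. Its flanking introns were long. The intron upstream of exon 4 has 34994 bases (84.7th percentile) and the intron downstream of exon 8 has 56485 bases (94.7th percentile).

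Library totals ranged from 30110 to 50672 circRNA reads, so that 1 read was worth 33.2 circCPM (circRNA counts scaled to 1000000 circRNA reads of the library) in the smallest library and 19.7 in the largest. Of all table values 29.3% were 0 and none was 1, so a listed 0 may hide a single read. Bckdhb had 1026 reads over the 6 libraries, with 60 and 50 at D0, 215 and 199 at D4, and 266 and 236 at D8. As circCPM is relative to other circRNAs, and the cells are mixed, fewer cells of a type and less RNA per cell cannot be told apart.

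The summed circRNA output of Bckdhb was higher after induction. It stood at 1993 and 1548 circCPM in the D0 libraries, 4992 and 4777 at D4, and 5863 and 4657 at D8. Both D0 libraries lay below all 4 later ones, while the D4 and D8 libraries overlapped. With circRNA reads summed per parental gene, edgeR's quasi-likelihood test gave a log2 fold change of 1.61 (SE 0.26, adjusted p = 0.00564) for D4 against D0 and of 1.65 (SE 0.26, adjusted p = 0.00875) for D8 against D0. These comparisons share the D0 libraries. In the edgeR test, D8 did not differ detectably from D4 (log2 fold change 0.04, SE 0.24, adjusted p = 0.949), and over the 3 stages the adjusted p was 0.00905. Among 1108 genes tested, 8.94% were called over the 3 stages, 5.51% were called higher at D4 than at D0, 4.51% higher at D8 than at D0, and 0.0903% were called between D8 and D4. The median log2 fold change of all genes was -0.01 for D4 against D0 and 0.03 for D8 against D0, and 131 and 130 genes had larger values than Bckdhb. By edgeR the call over the 3 stages was lost without D0 replicate 2 (adjusted p = 0.0546) and that of D8 against D0 without D8 replicate 1 (adjusted p = 0.0657).

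The isoform of exons 4 to 8, circ_0001822, carried most of this output. It had 41 and 29 reads at D0, 167 and 147 at D4, and 162 and 149 at D8. In circCPM these are 1362 and 898, 3878 and 3529, and 3571 and 2940. The D0 libraries were again lowest, and D4 and D8 overlapped. In the edgeR fit of 1407 circRNAs, circ_0001822 was higher at D4 than at D0 by 1.80 on the log2 scale (SE 0.30, adjusted p = 0.0302), and 2.2% of circRNAs were called higher in that comparison. It was higher at D8 than at D0 by 1.62 (SE 0.30, edgeR adjusted p = 0.0498), where 1.21% were called higher. The D8 and D4 libraries differed by -0.18 (SE 0.28, edgeR adjusted p = 0.858), with 0.0711% called. Tested over the 3 stages at once, circ_0001822 just missed the threshold in edgeR (adjusted p = 0.0540, 1.14% called) and passed it in DESeq2's likelihood ratio test (adjusted p = 0.0297). The D4 call was lost in edgeR without D4 replicate 1 (adjusted p = 0.155) or D4 replicate 2 (0.126). The D8 call held only in the fit described and without D0 replicate 1 (adjusted p = 0.0215), and its values elsewhere were 0.0543 to 0.105.

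circ_0015952, the circle of exons 2 to 6, was the second most abundant isoform over the 6 libraries together. At D4 it had 18 reads in sum, below the 33 of circ_0015953 and the 21 of the intron 1 to exon 6 circle. In D4 replicate 1 it exceeded both. The reads of circ_0015952 were 14 and 14 at D0, 14 and 4 at D4, and 48 and 24 at D8. In circCPM the D0 libraries had 465 and 433, the D4 libraries 325 and 96.0, and the D8 libraries 1058 and 474. The D4 libraries were lowest and the D8 libraries highest, without overlap between stages, though D8 replicate 2 was close to D0. None of its differences passed the edgeR test. The log2 fold change was -0.98 (SE 0.73, adjusted p = 0.519) for D4 against D0, 0.86 (SE 0.67, adjusted p = 0.532) for D8 against D0 and 1.85 (SE 0.70, adjusted p = 0.320) for D8 against D4. These values rest on single libraries. Without D4 replicate 1 the first was -2.13, and without D4 replicate 2 it was -0.31. Without D8 replicate 1 the value for D8 against D0 was 0.20. For D8 against D4 leaving out D4 replicate 1 gave 3.01, leaving out D4 replicate 2 gave 1.22 and leaving out D8 replicate 1 gave 1.15.

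The isoform from intron 1 to exon 6 was the only other one detected at every stage. It had 5 and 4 reads at D0, 10 and 11 at D4, and 7 and 13 at D8, or 145 ± 29.9, 248 ± 22.5 and 205 ± 72.3 circCPM (mean ± SD, n = 2). The D8 libraries overlapped both other stages, and every pairwise edgeR comparison had an adjusted p of 0.661 or more.

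circ_0015953, the circle of exons 2 to 8, was listed at 0 in both D0 libraries. It had 8 and 25 reads at D4, and 24 and 15 at D8, which is 186 and 600 circCPM at D4 and 529 and 296 at D8. The D4 and D8 libraries overlapped. At its share of the gene's D4 and D8 reads only 4.72 and 3.93 reads would have been counted in the D0 libraries, so the listed zeros rest on few reads. No fold change against D0 is given, as a listed 0 may hide 1 read.

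The rarer isoforms were seen mostly after induction. The circle from intron 1 to exon 8 had 8 and 0 reads at D4 and 7 and 18 at D8. The circle of exons 4 to 7 appeared at D8 alone, with 11 and 4 reads. The circle of exons 4 to 9 had 3 and 3 reads at D4 and 0 and 8 at D8, and circ_0015955 had 3 and 3 at D4 and 4 and 0 at D8. The circle from intron 3 to exon 8 was the one rare isoform with a D0 read count above 0, with 3 reads in D0 replicate 2 and with 3 and 5 at D8. In all, 6 of the 10 isoforms were at 0 in both D0 libraries, against 20.5% of the table, while 2 were at 0 in both D4 libraries (20.3% of the table) and 1 in both D8 libraries (15.8%). These 6 isoforms held 16.6% of the gene's D4 and D8 reads. At that share 9.96 and 8.30 reads of the 6 together would have been counted in the D0 libraries, where 0 were listed and each 0 may hide 1 read. As the 6 are grouped here by their zeros at D0, nothing is read from this difference. They entered the table through their D4 or D8 reads, and for any single one of the 5 rarer isoforms among them at most 2.16 reads would have been counted in a D0 library, too few to tell loss at this depth from absence.

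**Figure D2:**
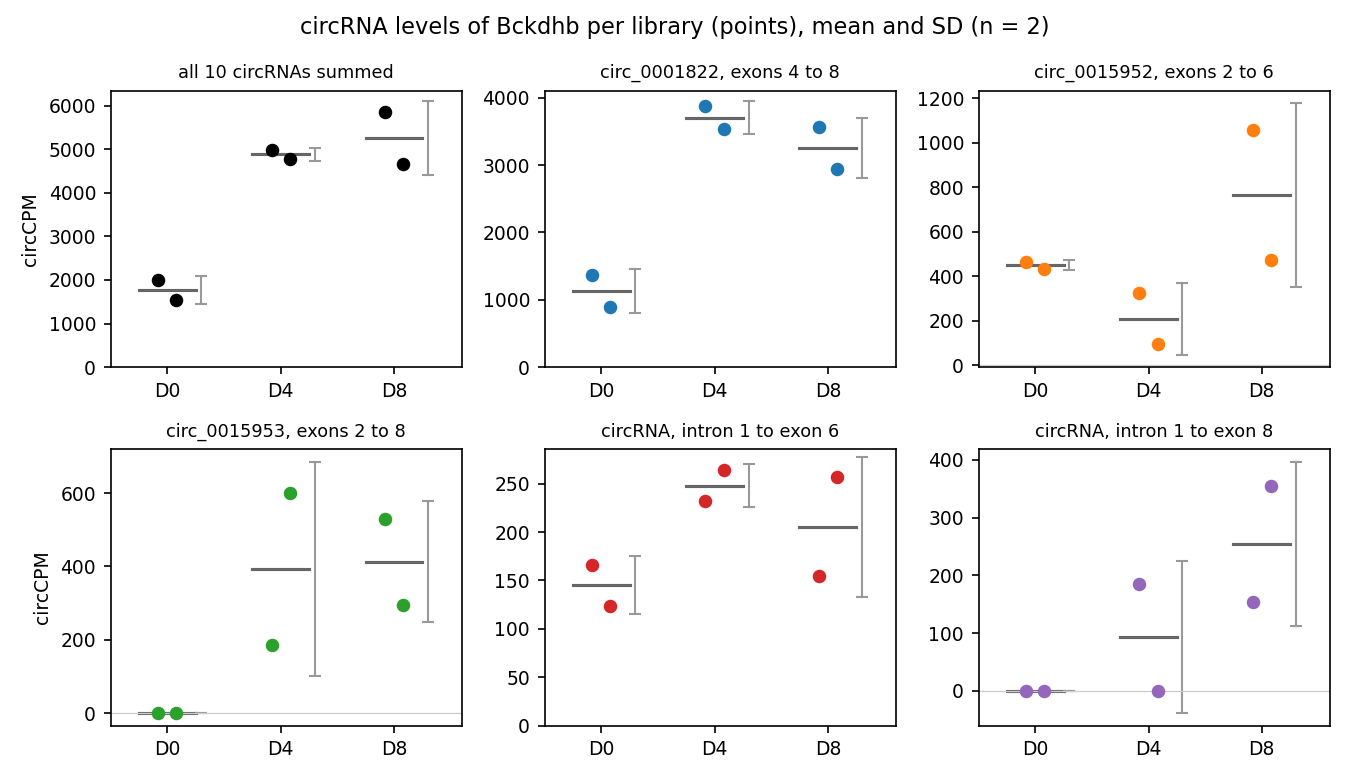
Level in circCPM (vertical axis, from 0) of all 10 Bckdhb circRNAs summed and of the 5 most abundant isoforms in each library (points), by stage, with the mean (line) and SD (bar, n = 2). The sum and circ_0001822 were lowest in both D0 libraries, circ_0015952 was lowest at D4, and 2 isoforms were listed at 0 at D0.

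Within the gene's reads, circ_0001822 was the leading isoform in every library. It took 68.3% and 58% of them at D0, 77.7% and 73.9% at D4, and 60.9% and 63.1% at D8. The exact (Clopper-Pearson) 95% interval was 55.0 to 79.7% in D0 replicate 1, which had 60 reads of the gene, and 54.8 to 66.8% in D8 replicate 1, which had 266. Such intervals cover counting error only, and PCR copies were not removed by molecular identifiers. The D4 libraries had the highest shares, while D0 and D8 overlapped (exact permutation test, 15 pairings of the libraries, p = 0.20). This depends on the denominator. Among the reads of the 3 isoforms detected at every stage, circ_0001822 took 68.3% and 61.7% at D0, 87.4% and 90.7% at D4, and 74.7% and 80.1% at D8, without overlap. That denominator leaves out the 6 isoforms at 0 at D0, which held 16.6% of the gene's D4 and D8 reads. It raises the later shares by construction, so nothing is read from the gap between D0 and D8. Over all libraries circ_0001822 held 67.7% of the reads, which ranked 2 among the leading isoforms of the 20 genes with 8 or more circRNAs (median 38.7%, range 17.2 to 68.8%). These reads come mostly from the D4 and D8 libraries. With each library given equal weight its mean share was 67.0%, again rank 2 (median 37.4%, range 17.4 to 68.4%).

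The share of circ_0015952 was 25.7 ± 3.3% at D0, 4.26 ± 3.18% at D4 and 14.1 ± 5.57% at D8 (mean ± SD, n = 2 each). Its libraries had 23.3% and 28%, then 6.51% and 2.01%, then 18.0% and 10.2%. The 3 stages did not overlap, and the exact permutation p of 0.0667 is the smallest that 2 libraries a stage allow, so this test could not pass 0.05. The share of circ_0015953 was 0 at D0, 3.72% and 12.6% at D4, and 9.02% and 6.36% at D8.

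**Figure D3:**
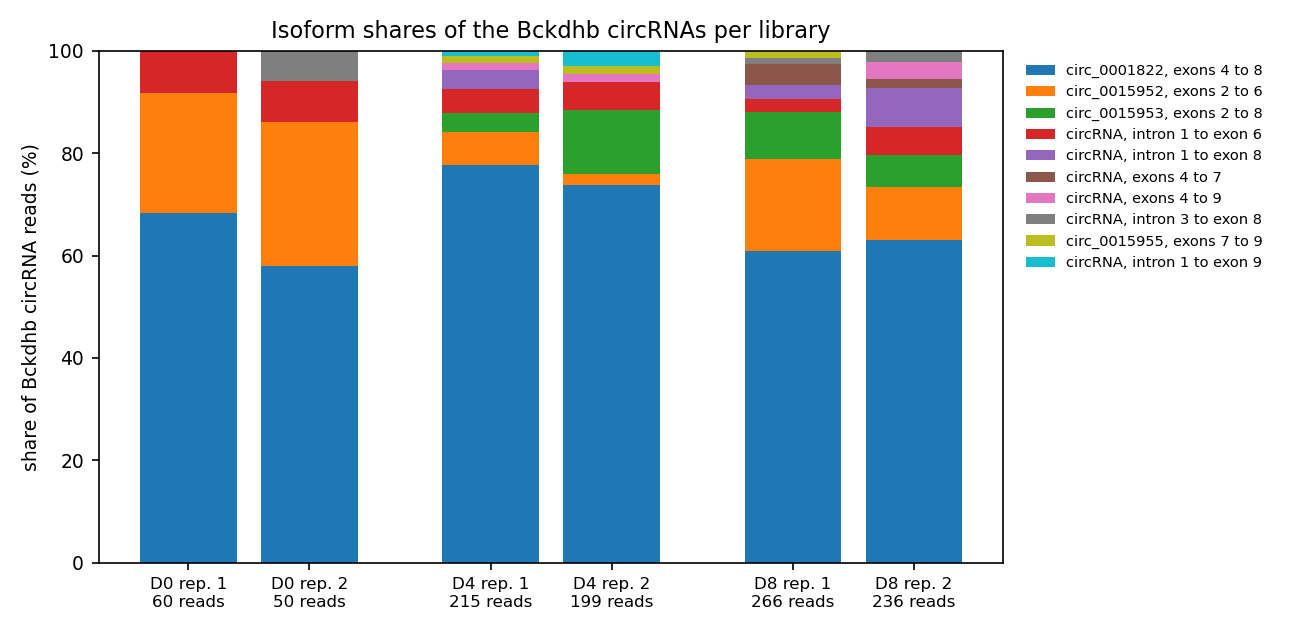
Share of each isoform (colours) in the Bckdhb circRNA reads of each library, as stacked bars that add to 100%, with the reads of the gene under each bar. circ_0001822 is the largest block in all 6 libraries, and the block of circ_0015952 goes from 23.3% and 28% at D0 to 6.51% and 2.01% at D4.

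Isoform use was also tested in 1 fit over 683 circRNAs of 264 genes, with edgeR's diffSpliceDGE, which asks whether a circRNA changes unlike the others of its gene. Of the 10 Bckdhb isoforms 4 entered this fit and 0 passed, and circ_0015953, 1 of the 4, entered through its D4 and D8 reads and is not read. For D4 against D0 the log2 fold change of circ_0015952 relative to its gene was -2.48 (unadjusted p = 0.00243 in edgeR's diffSpliceDGE, adjusted p = 0.344). For D8 against D0 it was -0.66 (edgeR adjusted p = 1) and for D8 against D4 it was 1.82 (adjusted p = 0.708 in edgeR). The first value was -3.57 without D4 replicate 1 and -1.94 without D4 replicate 2. The second was -1.25 without D8 replicate 1 and -0.39 without D8 replicate 2. The last became 2.78 when D4 replicate 1 was left out, 1.16 when D4 replicate 2 was and 1.25 when D8 replicate 1 was. The relative change of circ_0001822 was 0.31, 0.10 and -0.21 for D4 against D0, D8 against D0 and D8 against D4, each with an edgeR adjusted p of 1. Few circRNAs were called at all, with 0.146% for D4 against D0, 0 for D8 against D0 and 0.146% for D8 against D4. At an unadjusted p under 0.05 the diffSpliceDGE counts were 32, 34 and 29.

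The back-splicing sites were used unevenly. The end of exon 8 closed 4 isoforms and 79.0% of the reads, the end of exon 6 closed 2 isoforms and 16.4%, the end of exon 9 closed 3 isoforms and 3.12%, and the end of exon 7 closed 1 isoform and 1.46%. Among starts, exon 4 opened 3 isoforms and 70.6% of the reads, exon 2 opened 2 isoforms and 18.5%, and the intron 1 position opened 3 isoforms and 8.87%.

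Circles closed at exon 6 took 31.7% and 36% of the reads at D0, 11.2% and 7.54% at D4, and 20.7% and 15.7% at D8. Those closed at exon 8 took 68.3% and 64%, 85.1% and 86.4%, and 73.7% and 79.2%. Neither set of shares overlapped between stages. The gap between D0 and D8 in the exon 8 set came with the circles of exons 2 to 8 and of intron 1 to exon 8, which were listed at 0 at D0, and the shares of circ_0001822 alone in all reads of the gene overlapped between these stages. No test is read from these sets. In circCPM, circles closed at exon 6 had 594 ± 52.3 at D0, 459 ± 139 at D4 and 971 ± 341 at D8, so that D0 and D4 differed by about their spread. Circles closed at exon 8 had 1176 ± 263 at D0, 4189 ± 84.9 at D4 and 4005 ± 445 at D8 (mean ± SD, n = 2). Within the exon 6 set the means of circ_0015952 were 449, 211 and 766 circCPM and those of the intron 1 to exon 6 circle 145, 248 and 205 at the 3 stages. Circles closed at exon 9 were at 0 at D0 and had 186 and 288 circCPM at D4 and 88.2 and 158 at D8.

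**Figure D4:**
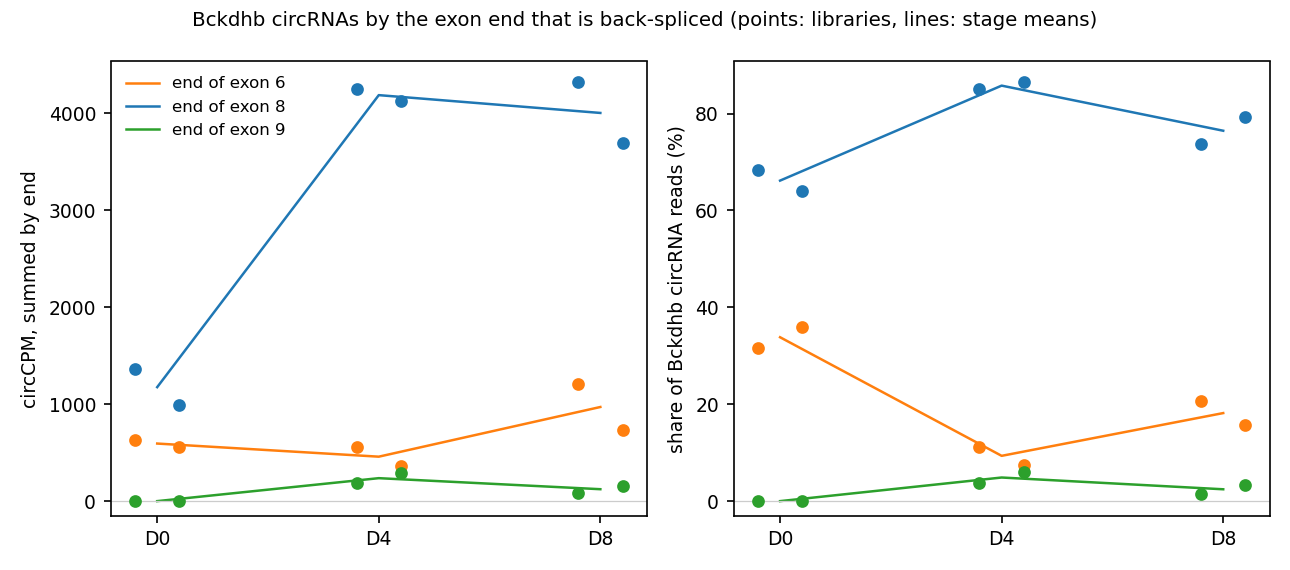
Bckdhb circRNAs grouped by the exon end that is joined back, as circCPM (left) and as share of the gene's circRNA reads in percent (right), for each library (points) with lines through the stage means. Circles closed at exon 8 went from 1176 circCPM at D0 to 4189 at D4, and those closed at exon 6 went from 33.8% to 9.35% of the reads.

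The start in intron 1 was used at every stage. It opened 8.33% and 8.00% of them at D0, 9.30% and 8.54% at D4, and 5.26% and 13.1% at D8. The D8 libraries spanned the range of all the others. No test is read from these shares, as the intron 1 circles to exons 8 and 9 entered the table through later reads. On D0 it was seen with the end of exon 6 alone, and later also with the ends of exons 8 and 9.

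The circRNAs of other genes with a course most like circ_0001822 were ranked by Pearson's r of log2(circCPM + 10) over the 6 libraries among 1403 circRNAs. This is a description, since the points share their libraries and 24 circRNAs had an r above 0.95. The 5 closest came from Egfr (a growth factor receptor, r = 0.975), Pcsk5 (a proprotein convertase, 0.975), Med12l (a Mediator subunit, 0.975), Zbtb16 (a zinc finger transcription factor, 0.974) and the annotated span of Vmn1r90 (0.974). Ranks depended on the measure, as Spearman's rho was 0.77 for Egfr, 0.49 for Zbtb16 and 0.81 for Vmn1r90. The Egfr circRNA had 13 and 11 reads at D0, 167 and 143 at D4, and 145 and 187 at D8. Pcsk5, Med12l and Vmn1r90 were at 0 in both D0 libraries. Among the gene's own isoforms detected at every stage, r with circ_0001822 was 0.74 for the intron 1 to exon 6 circle and -0.16 for circ_0015952. For circ_0015953 it was 0.94, but its listed zeros in both D0 libraries help to set that value, so it is not read.

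The other genes of branched-chain amino acid catabolism were read from a list. Of 37 genes on a list of the pathway, its transporters and its regulators, 6 had circRNAs in the table (Acaa2, Auh, Bcat1, Hibadh, Oxct1 and Pcca), with 11 circRNAs, of which 7 entered the edgeR fit. The other subunits of the dehydrogenase complex, Bckdha, Dbt and Dld, had none in the table. For D4 against D0 edgeR called 1 of the 7 higher and 0 lower, where 2.2% of all circRNAs were called higher. It called 0 for D8 against D0, where 1.21% of all were called higher, and 0 for D8 against D4, where 0.0711% of all were called, and DESeq2 called 0 in each of the 3 comparisons. At an unadjusted p under 0.05 edgeR gave 2, 3 and 2 of the 7 in these comparisons, beside 19.9%, 18.8% and 12.2% of all circRNAs. The counts for D8 include circ_0004645 of Auh, which passed the filter only through its D8 reads, and without it they are 2 for D8 against D0 and 1 for D8 against D4. Over the 6 list members with reads in both stages of a comparison the median log2 fold change was 0.81, 0.21 and -0.60 for D4 against D0, D8 against D0 and D8 against D4, beside 0.02, 0.04 and -0.02 over all circRNAs with such reads. For D4 against D0 and for D8 against D0, 3 of the 6 were above 0 and 3 below, for D8 against D4 1 was above and 5 below, and with circ_0004645 included the medians were 0, 0.87 and -0.42.

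The circRNA called was circ_0013437 of Hibadh, the dehydrogenase of the valine branch that acts on hydroxyisobutyrate. It had 465 and 712 circCPM at D0, 2275 and 1944 at D4, and 1190 and 1243 at D8. The stages did not overlap, and D4 was above D0 by 1.93 on the log2 scale (SE 0.35, edgeR adjusted p = 0.0342). For D8 against D0 the value was 1.14 (edgeR adjusted p = 0.141). The D4 call was lost in DESeq2 (adjusted p = 0.0595), with a replicate block (0.0649) and in edgeR without D0 replicate 1 (0.0721), D4 replicate 1 (0.198) or D4 replicate 2 (0.131).

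Pcca encodes the alpha subunit of propionyl-CoA carboxylase, which takes up the propionyl-CoA left from isoleucine and valine. Its circ_0005021 had 399 and 124 circCPM at D0, 859 and 840 at D4, and 264 and 632 at D8 (D4 against D0, log2 fold change 1.79, edgeR adjusted p = 0.197). Bcat1, the cytosolic aminotransferase that starts the pathway, had circ_0013174 at 1827 and 433 circCPM at D0, 371 and 408 at D4, and 264 and 316 at D8. Its D0 replicates differed more than the stages, and D8 against D0 gave -1.86 (edgeR adjusted p = 0.20). A second Bcat1 circRNA had 232 and 310 circCPM at D0, 186 and 264 at D4, and 88.2 and 39.5 at D8, where D0 and D4 overlapped (D8 against D0, -1.95, edgeR adjusted p = 0.345).

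Auh, a hydratase of leucine breakdown, had circ_0004645 at 0 at D0 and D4 and at 331 and 316 circCPM at D8, and circ_0004646 at 99.6 and 0 at D0, 255 and 336 at D4, and 176 and 276 at D8. Oxct1, the transferase that activates ketone bodies, had circ_0005660 at 116 to 375 circCPM, where D8 overlapped both other stages, and circ_0000571 at 0 to 433 circCPM, where all stages overlapped. The single circRNA of Acaa2, a mitochondrial thiolase, had a mean of 2.5 reads. With reads summed per gene, 5 genes of the list were tested beside Bckdhb. Hibadh was the one called for D4 against D0, where 5.51% of all 1108 genes were called higher (log2 fold change 1.98, SE 0.35, edgeR adjusted p = 0.00857). The call was not kept without D4 replicate 1, where the log2 fold change was 1.85. The Hibadh total is made of circ_0013437 alone, so it repeats the same reads and is not a second result.

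**Figure D5:**
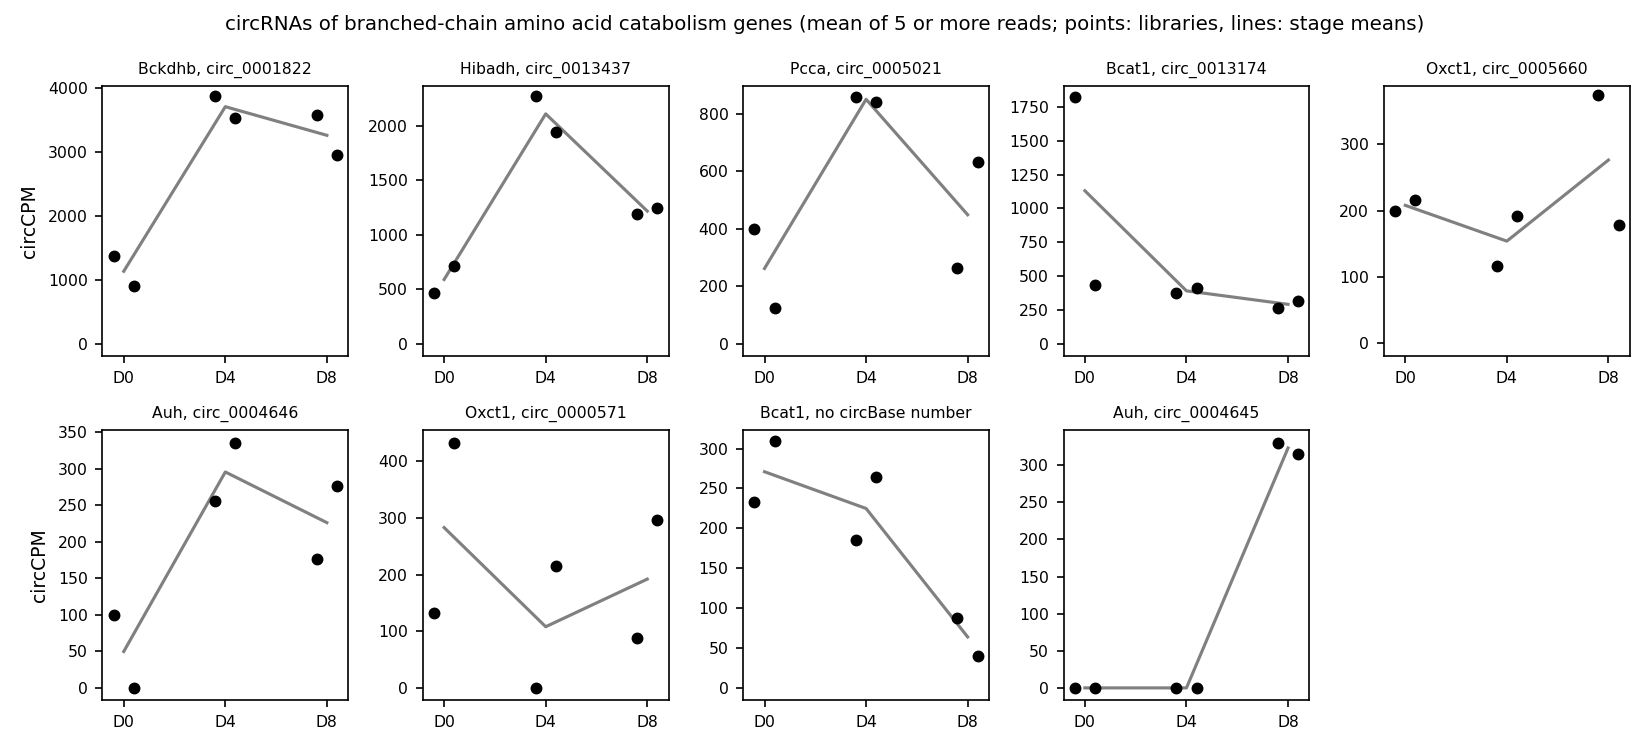
Level in circCPM (vertical axes, separate scales from 0) of circ_0001822 and of the circRNAs of other branched-chain amino acid catabolism genes with a mean of 5 or more reads, for each library (points) with lines through the stage means. circ_0013437 of Hibadh was highest in both D4 libraries, at 2275 and 1944 circCPM, and circ_0013174 of Bcat1 was highest in D0 replicate 1, at 1827.

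Markers of the cell types that the cultures could hold were read from their circRNAs, as no linear RNA was analysed here. Of 12 adipocyte markers, 5 had circRNAs (Acaca, Cd36, Lipe, Lpl and Pparg), whose summed level was 764 and 124 circCPM at D0, 1045 and 1152 at D4, and 2755 and 2546 at D8, while Adipoq, Plin1 and Fabp4 had none in the table. The D0 sums were wholly circ_0000301 of Acaca, which had 627 and 648 circCPM at D4 and 1455 and 749.9 at D8, and the circRNAs of Cd36, Lipe and Lpl had reads at D8 alone. Those of Pparg, the nuclear receptor that drives adipocyte differentiation, summed to 0 reads in both D0 libraries, 13 and 18 at D4, and 24 and 29 at D8. Of the 3 adipocyte gene totals tested, those of Pparg and Cd36 passed the filter only through reads of later stages. As both had 0 reads at D0, their tests against D0 are not read. The Acaca total was not called for D4 against D0 (edgeR adjusted p = 0.443), where 5.51% of all 1108 genes were called higher. Nor was it called for D8 against D0 (edgeR adjusted p = 0.129), where 4.51% were called higher. Of 9 preadipocyte and fibroblast markers, Ebf2 and Pdgfra had 1 circRNA each. Their sum was 365 and 310 circCPM at D0, 209 and 72.0 at D4, and 88.2 and 98.7 at D8. Their courses differed. Ebf2 had 99.6 and 0 circCPM at D0, 139 and 72.0 at D4, and 0 in both D8 libraries. Pdgfra had 266 and 310 circCPM at D0, 69.7 and 0 at D4, and 88.2 and 98.7 at D8. The endothelial (5 genes), immune (4) and proliferation (3) markers had 0 circRNAs. How far the cell make-up of the cultures takes part in the Bckdhb values was not tested.

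The 608-base circle was searched, across its back-splice too, for the 7 bases that pair with bases 2 to 8 of a miRNA, on the RNA strand alone, with mature sequences from RefSeq (GRCm38.p6). The miRNAs miR-106a, miR-17, miR-294, miR-466i and miR-883a-5p were taken from the study's own interaction network, which lists them for circ_0001822. The paper predicted that network with miRDB, so a search for 7 bases on an assumed splice is a different method. None of their 8 arms had a match. The letters searched were GCACTTT for the 5p arms of miR-106a and miR-17 (held by 4.07% of 712 exonic circles of 500 to 700 bases), ACTGCAG for their 3p arms (10.7%), AGCACTT and TTTTGAG for miR-294 (5.06% and 4.21%), GTGTGTA for miR-466i-3p (3.23%) and TCTCAGC for miR-883a-5p (7.58%). Nor was there a match among 48 arms of miRNA families studied in fat cells, with 27 seeds, among them CTACCTC for let-7 (4.92% of circles), ACTGTGA for miR-27 (7.16%), TGGTGCT for miR-29 (8.01%), TGTTTAC for miR-30 (3.65%), ATGCTGC for miR-103 (10.4%) and TTGCACT for miR-130 (2.81%). The remaining letters searched were TTGTATA of let-7a-1-3p, CTGTACA of let-7a-2-3p, TTGTACA of let-7c-1-3p, TCGTATA of let-7d-3p, CCGTATA of let-7e-3p, CTGTATA of let-7f-2-3p, TGTACAG of let-7g-3p, TTGCGCA of let-7i-3p, ATACCTC of let-7j, TAAGCCC of miR-27a-5p, TAAGCTC of miR-27b-5p, AAATCAG of miR-29a-5p, AAACCAG of miR-29b-1-5p, GAAACCA of miR-29b-2-5p, ATCGGTC of miR-29c-5p, ACTGAAA of miR-30a-3p, TCTCCCA of miR-30c-1-3p, ATGTTTA of miR-30f, AAGAAGC of miR-103-1-5p, AAAAGAG of miR-130a-5p and GAAAGAG of miR-130b-5p. The miRNAs miR-466d-5p, miR-669c, miR-875-3p and miR-143 were not searched. A missing match says only that these letters are not in this circle as spliced here.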

How the data were processed

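The measurements were back-splice read counts in 6 circRNA libraries (D0, D4 and D8, 2 each). The authors removed rRNA, digested linear RNA with RNase R, trimmed reads with fastp, mapped them to mm9 with BWA-MEM and called circRNAs with CIRI2. The submitters' processing notes also name FastQC 0.11.9 and HISAT2 2.2.0. The deposited values are raw counts, and circRNAs with fewer than 2 reads in a replicate of every stage are not in the table. How far RNase R digestion differed between libraries was not tested.

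Members and lists were chosen with earlier results of these data known. circCPM, shares and exact 95% intervals were computed from the counts. Parental genes were assigned by position and strand. Counts were fitted over all circRNAs, and over reads summed per gene, with edgeR 4.0.16 (R 4.3.3, TMM, filterByExpr with a minimum count of 10 and total of 15, quasi-likelihood test, Benjamini-Hochberg, threshold 0.05). The fits were also run on simulated counts, without the table's entry rule. The outcome of those runs is not given here and supports no statement. The SE given with an edgeR log2 fold change was derived from its test, as its size divided by the square root of the F statistic. DESeq2 1.42.0 was an alternative. Library totals were 30110 and 32310 (D0), 43069 and 41658 (D4), 45371 and 50672 (D8) reads. Named were all 10 Bckdhb circRNAs, the list genes with circRNAs (values from a mean of 5 reads) and the 5 most alike circRNAs. Tests of isoforms not detected at every stage support no statement. Shares were compared by an exact permutation test over the 15 pairings of libraries (scipy 1.17.1). Alternatives were other scalings, no filter, a replicate block, leaving out each library, pooled shares, listed zeros taken as 1 read and another pseudocount.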

Additional observations from a re-analysis of the deposited data

How the results depend on the processing

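Of 654 recomputed values 545 kept their direction and side of the threshold or stayed near their value, and 15 changed sign, 0 of them with an adjusted p under 0.05. These were D8 against D4 for the Bckdhb total (adjusted p 0.828 to 1 with a library left out), circ_0015953 (0.874 to 0.975, not read as a test) and the intron 1 to exon 6 circle (0.909 to 1), and the isoform use of circ_0001822 for D8 against D0 (0.999 to 1, and 1 without the filter) and of circ_0015953 and the intron 1 to exon 6 circle for D8 against D4 (0.999996 to 1 in each). The call of circ_0001822 for D8 against D0 was lost with RLE factors (adjusted p = 0.0625), library totals alone (0.0625), no filter on low counts (0.0714), the replicate block (0.0580) and DESeq2 (0.0612). Its test over the 3 stages passed without the filter (0.0457) and in DESeq2 (0.0297). With single libraries left out, its adjusted p ran from 0.0246 to 0.148 over the 3 stages, from 0.0145 to 0.155 for D4 against D0 and from 0.0215 to 0.105 for D8 against D0. For the Bckdhb total these ranges were 0.0184 to 0.0546, 0.0128 to 0.0436 and 0.0130 to 0.0657. A lone library was taken to vary like the others. The causes were not tested.

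Over all circRNAs, edgeR called 16 over the 3 stages, against 5 with library totals alone, 396 without the filter, 4 with the replicate block and 39 with DESeq2 (2 to 58 with a library left out). The block gave 17 circRNAs for D4 against D0, where 46 were called (4 to 67 with a library left out), 4 for D8 against D0, where 21 were called (11 to 27), and 0 for D8 against D4, where 1 was called (0 to 15; 3 with DESeq2), with 141 at an unadjusted p under 0.05. Gene totals gave 57 calls for D4 against D0 and 43 for D8 against D0 without the filter, and 2 for D8 against D4 with the block and 15 with DESeq2. With a library left out they gave 32 to 64 over the 3 stages and 37 to 63, 18 to 57 and 0 to 4 for the pairs. Of the amino acid catabolism circRNAs 0 were called for D4 against D0 with the block and with DESeq2, and 0 to 1 with a library left out. Same-numbered libraries hardly deviated together (r of 0.0352, 0.0698 and 0.0470 between stages). Counting error at these read numbers could hide a shared source, and the labels name none. Whether these libraries share more than a number is therefore not known.

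Counting only isoforms detected at every stage, circ_0001822 took 65.0% of reads on D0, 89.1% on D4 and 77.4% on D8, so that D8 no longer overlapped D0. That count drops the isoforms listed at 0 at D0, which raises the later shares by construction. With each listed 0 taken as 1 read, circles closed at exon 6 took 30.3% on D0. Gene names were not in the table, so parental genes rest on the assignment by position and strand, and no other assignment was tried. With 50 to 60 reads of the gene in a D0 library, isoforms under a few percent of reads could be missed there.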
